A study of Mus with 8 samples.

Results

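The region described here was the Cebpa locus, a stretch of 203 kb on chromosome 7 (mm9, from 35804000 to 36007000) that holds the gene with about 100 kb on each side. Cebpa was placed by the selection rule near 35904300 to 35907000 on the plus strand. Every C/EBPβ peak that touched the stretch was taken. This gave 11 peaks of the 42729 in the 4 deposited lists, or 7 merged regions of 28658. Binding had been measured by ChIP-seq in the mouse preadipocyte line 3T3-L1, with 1 ChIP and 1 input library for each of 4 conditions. Control (C) cells carried a lentiviral scrambled hairpin and P cells a lentiviral hairpin that down-regulates the homeodomain factor Prep1, and both had been selected in puromycin. Chromatin came from day −2, before any inducer, or from 4 h after dexamethasone, 3-isobutyl-1-methylxanthine and insulin were added together. The conditions had no replicates, so no test between them was possible, and the intervals given for fragments and their ratios cover counting error only. The libraries had like depths, between 7.82 and 7.85 M reads as implied by the lists.

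C/EBPα, the product of Cebpa, is a basic leucine zipper transcription factor that works with Pparγ to establish and maintain the adipocyte state. C/EBPβ appears early after hormonal induction, and Cebpa is one of the genes it is known to activate before C/EBPα takes over its own expression. The Cebpa promoter is known to carry a C/EBP element. In a RefSeq table of another build (GRCm38), the protein-coding genes within the same reach upstream of Cebpa were Pepd, a peptidase, Cebpg, another C/EBP family gene, and Gm45095. Downstream were Slc7a10, an amino acid transporter gene, and Lrp3, a gene of the lipoprotein receptor family. That table was used for names and order, so which peaks lie in or beside these neighbours was not examined.

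C cells had no C/EBPβ peak around Cebpa at day −2, and P cells had 1. At 4 h the lists of C and P cells held 3 and 7. All 3 C peaks at 4 h overlapped a P peak of the same time, and the day −2 peak of P cells overlapped a peak of both 4 h lists. The other 4 regions were found in induced P cells alone. No region was listed in C cells without a counterpart in P cells. Such overlap was common over the whole lists. At 4 h there were 11616 overlapping pairs of a C and a P peak, for 13525 C peaks. In P cells there were 1631 overlapping pairs of a day −2 and a 4 h peak, for 1653 day −2 peaks. The overlaps around Cebpa were thus near the background. The P to C ratio of peak numbers at 4 h was 2.33, against 1.98 over the whole lists. These are called peaks of 1 library each, so no error can be given for the ratio. Of the 7 P peaks, 3 were shorter than 215 bp, the shortest peak of the day −2 list of C cells. Without peaks under that width, P cells kept 4 and C cells 2 at 4 h.

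**Figure D1:**
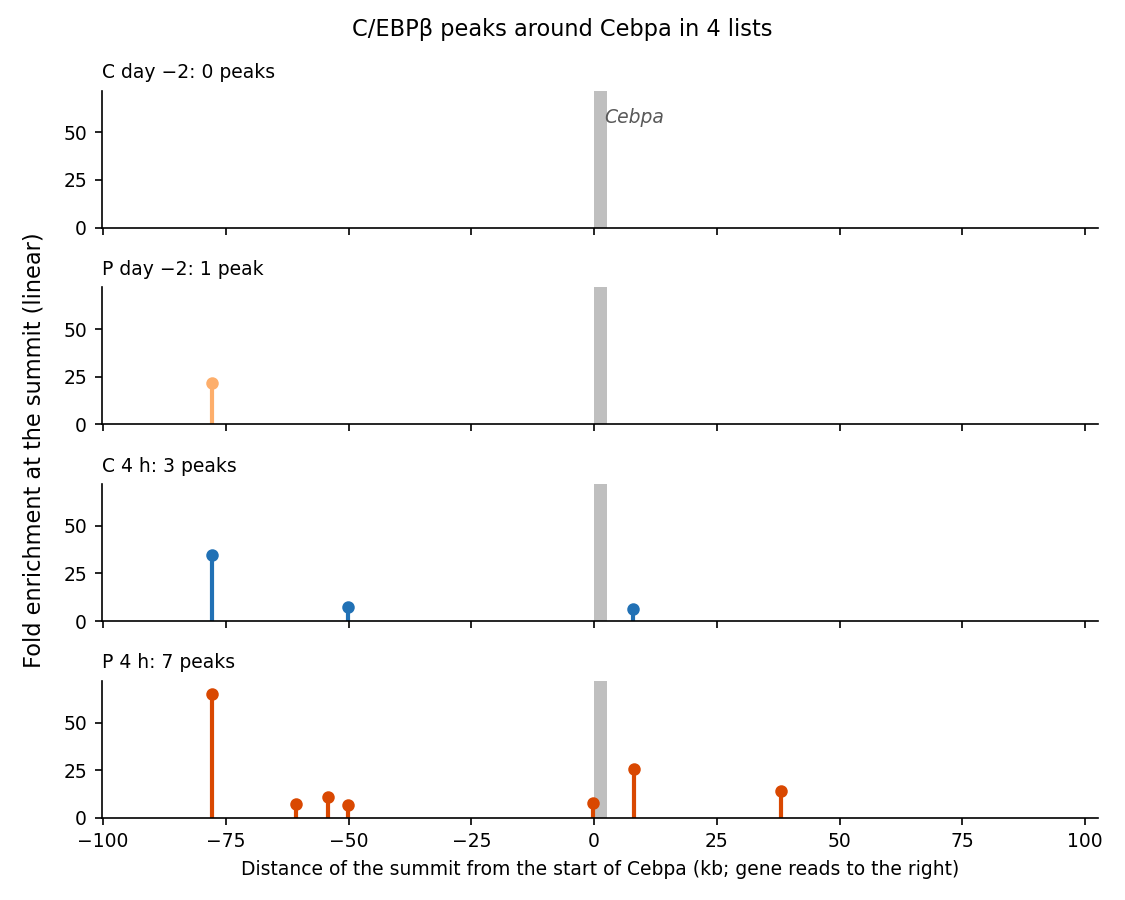
Fold enrichment (linear, vertical axis) of each C/EBPβ peak against the distance of its summit from the start of Cebpa in kb (horizontal axis), with 1 panel for each list and the gene as a grey band. The −77.8 kb site is the tallest in the 3 lists that hold it, rising from 21.6 to 65.0 in P cells, and the gene start carries a peak of 7.62 in induced P cells alone.

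The strongest site lay far upstream of Cebpa. At −77.8 kb (merged region on chromosome 7 from 35826346 to 35826772), C cells had no peak at day −2. The peak of P cells at day −2 had a fold enrichment of 21.6, the ratio of ChIP fragments plus 1 to local background plus 1 at the summit, and a −log10 p of 44.7. At 4 h the peak of C cells had a fold enrichment of 34.6 and a −log10 p of 86.7, and that of P cells 65.0 and 208. The order of the conditions was therefore C at day −2, P at day −2, C at 4 h and P at 4 h. The 3 summits lay within 4 bp of each other, at 35826504, 35826505 and 35826508, so the lists pointed to the same spot.

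The numbers of fragments behind these values were recovered from the fold enrichment and −log10 p. At the −77.8 kb summit, P cells at day −2 had 32 fragments (exact Poisson 95% interval 21.9 to 45.2). C cells at 4 h had 55 (41.4 to 71.6) and P cells at 4 h had 121 (100 to 145). The interval of P cells at 4 h lay above both others, while those of P cells at day −2 and C cells at 4 h overlapped. In C cells at day −2, a summit of up to 7 fragments would have failed the threshold on p at the highest background seen here in the other lists, which is below the interval of P cells at the same time. A peak must also hold that p over a full fragment length, so an unlisted summit can have somewhat more fragments. In the day −2 list of C cells the weakest peak had 7 fragments and the 5th percentile was 11. The shortest peak of that list was 215 bp wide, against 159 to 164 bp in the other lists, and the part of this in the missing peak was not tested.

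**Figure D2:**
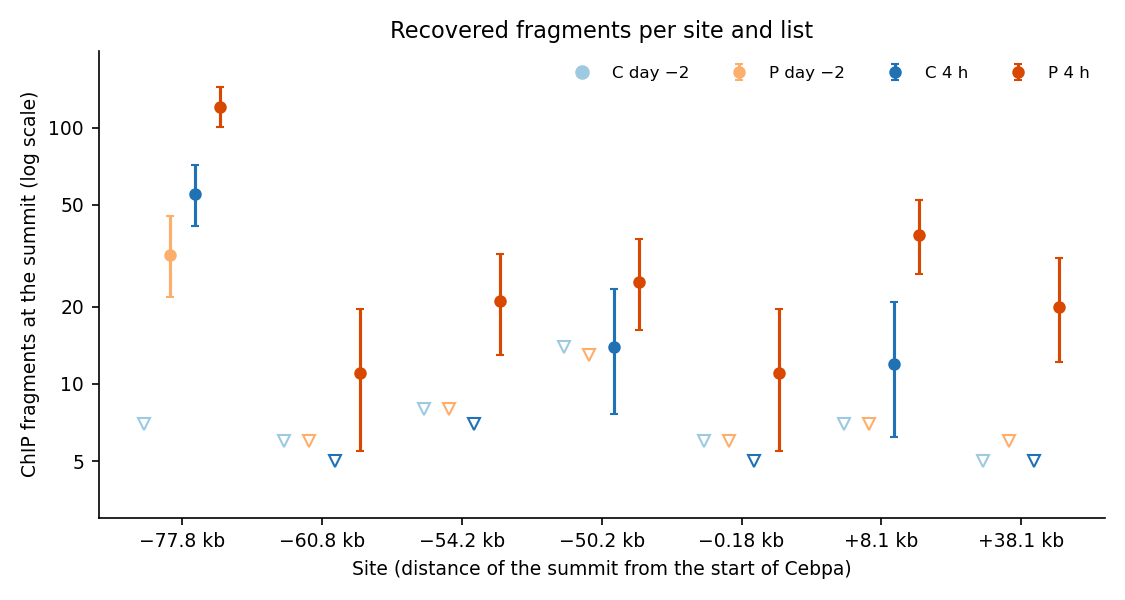
ChIP fragments at the summit (log axis) of each site in each list. Filled points are recovered numbers with exact Poisson 95% intervals, and open triangles mark the largest number that would fail the threshold on p in a list without the site. The 121 fragments of P cells at 4 h at the −77.8 kb site stand above the 55 of C cells, and the intervals of the cell types overlap at −50.2 kb.

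Between day −2 and 4 h, the −77.8 kb site of P cells went from 32 to 121 fragments, a ratio of 3.78 (exact Clopper-Pearson interval 2.54 to 5.77). Its fold enrichment was 3.01 times as high. Rises of this kind were common among the day −2 sites of P cells. Over all 1631 such sites that overlapped a 4 h peak, the median log2 ratio was 1.29 in fold enrichment and 1.37 in fragments, against 1.59 and 1.92 here. A ratio at least as large was found for 33.4% of them in fold enrichment and 20.5% in fragments.

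The −77.8 kb site was high in every list that held it. It ranked 93rd by −log10 p among the 1653 peaks of P cells at day −2, 201st among the 13525 of C cells at 4 h and 30th among the 26713 of P cells at 4 h. Across the genome, 977 regions had the same pattern, with a peak in each list other than that of C cells at day −2. Among the peaks of these regions it ranked 15th of 979 in P cells at day −2 and 11th of 977 in P cells at 4 h. In C cells at 4 h it ranked 56th of 990.

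At the gene itself, a single peak was listed, in P cells at 4 h. This −0.18 kb site (chromosome 7, from 35904011 to 35904190) had its summit at 35904124, position −176 relative to the gene start as the rule places it, so the peak lay just before the gene as far as that rounded start can tell. The fold enrichment was 7.62 and the −log10 p was 10.5, from 11 fragments (5.49 to 19.7) over a background of 0.572. It was among the weaker peaks of its list, since 88.5% of the P peaks at 4 h had a −log10 p at least as high. In C cells at 4 h a summit of up to 5 fragments would have failed on p, and the 5th percentile of that list was 10 fragments. The lower end of the P interval lay above that limit on p alone, but below 7, the fewest fragments of any peak in the C list. The P count of 11 was close to the 10. The site is listed because P cells passed the threshold there, so these limits cannot show a difference from C cells. No count was listed for C cells, so no ratio could be given at the promoter. The peak was 180 bp wide, under the 215 bp named above.

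Of the 3 sites shared at 4 h, the nearest downstream site had the largest P to C ratio in fold enrichment, −log10 p and fragments. At +8.1 kb (from 35912023 to 35912503 on chromosome 7) the 4 h peak of C cells had a fold enrichment of 6.52 and a −log10 p of 10.2, and that of P cells 25.8 and 56.1. No peak was listed there at day −2 in either cell type. The C summit had 12 fragments (6.20 to 21.0) and the P summit 38 (26.9 to 52.2), so the intervals did not overlap, and the ratio was 3.17 (exact Clopper-Pearson interval 1.62 to 6.66). At −77.8 kb the ratio of fragments between P and C cells at 4 h was 2.20 (1.59 to 3.08), which overlaps this interval, and the numbers themselves lay further apart there. The fold enrichment was 3.96 times as high in P cells. Its denominator, the local background plus 1, was 1.51 fragments in P and 2.00 in C cells, a ratio of 0.756. The intervals cover the ChIP fragments and not this background. The summits lay 55 bp apart, and 11.9% of common pairs in the genome were at least that far apart. Among the peaks of regions listed in both cell types at 4 h and in neither list of day −2, it ranked 8570th of 9851 by −log10 p in C cells and 1813th of 9789 in P cells.

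At the third shared site, fold enrichment and −log10 p put the cell types in opposite orders. At −50.2 kb (from 35854007 to 35854204) the 4 h peak of C cells had a fold enrichment of 7.52 and a −log10 p of 12.6, and that of P cells 6.49 and 14.5. Fragments numbered 14 (7.65 to 23.5) in C and 25 (16.2 to 36.9) in P cells, with overlapping intervals and a ratio of 1.79 (0.893 to 3.72). The background at the summit was 0.995 fragments in C and 3.00 in P cells, that is 2.09 and 6.51 times the genome background of the library, where the median of the P list was 2.17. Fragments were thus higher in P cells and fold enrichment was lower, over a denominator (background plus 1) 2.00 times as high. These backgrounds are of few fragments, and the intervals do not cover them. A difference in fragments at this site was not detectable beyond counting error.

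The remaining regions had a peak in P cells at 4 h and in no other list. The highest of them by fold enrichment and −log10 p was the +38.1 kb site (from 35942223 to 35942709), at 14.2 and 25.0, from 20 fragments (12.2 to 30.9). It was 487 bp wide, the widest peak of the locus. A downstream enhancer of Cebpa is known from blood cells, and whether this site falls in it was not examined. The −54.2 kb site (from 35849765 to 35850178) had a fold enrichment of 11.0, a −log10 p of 20.1 and 21 fragments (13.0 to 32.1), the most of these sites and within the interval of the +38.1 kb site. The −60.8 kb site (from 35843470 to 35843659) had a fold enrichment of 7.33, a −log10 p of 10.0 and 11 fragments (5.49 to 19.7). Limits on p alone in C cells at 4 h were 5, 7 and 5 fragments at the +38.1, −54.2 and −60.8 kb sites. The lower ends of the P intervals lay above these limits at all 3 sites. The sites were taken because P cells passed the threshold there, so this cannot show a difference from C cells. The fewest fragments of any peak in the C list were 7, which lies inside the P interval at −60.8 kb. At −60.8 kb the P count of 11 was close to the 10 fragments that mark the 5th percentile of the C list.

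Sites in P cells at 4 h alone are frequent. Of all P peaks at 4 h, 56.8% had no overlapping C peak, so 4 of 7 around Cebpa was near the background. Among the 15022 regions of this kind, the +38.1 kb site ranked 2561st by −log10 p, the −54.2 kb site 4392nd, the −0.18 kb site 12350th and the −60.8 kb site 13145th. The Cebpa locus therefore held both stronger and weaker sites of the class.

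The sites listed in both cell types at 4 h were set beside all 11616 common pairs. Fold enrichment was at least 2 times higher in P cells at 1 of 3 sites, the one at +8.1 kb, and at 28.1% of all common pairs. The log2 P/C ratio in fold enrichment was 0.91 at −77.8 kb, −0.21 at −50.2 kb and 1.99 at +8.1 kb. A ratio at least as large was found for 33.0%, 89.4% and 2.39% of common pairs. In fragments the log2 ratio was 1.14, 0.84 and 1.66, all above 0, as were 88.5% of all common pairs. A ratio at least as large was found for 20.6%, 40.2% and 4.02% of pairs. The intervals given above for these ratios were not set against this general rise. The median over the 3 sites was 0.91 in fold enrichment and 1.14 in fragments, against 0.62 and 0.71 over all common pairs. With 3 sites these medians are descriptions.

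**Figure D3:**
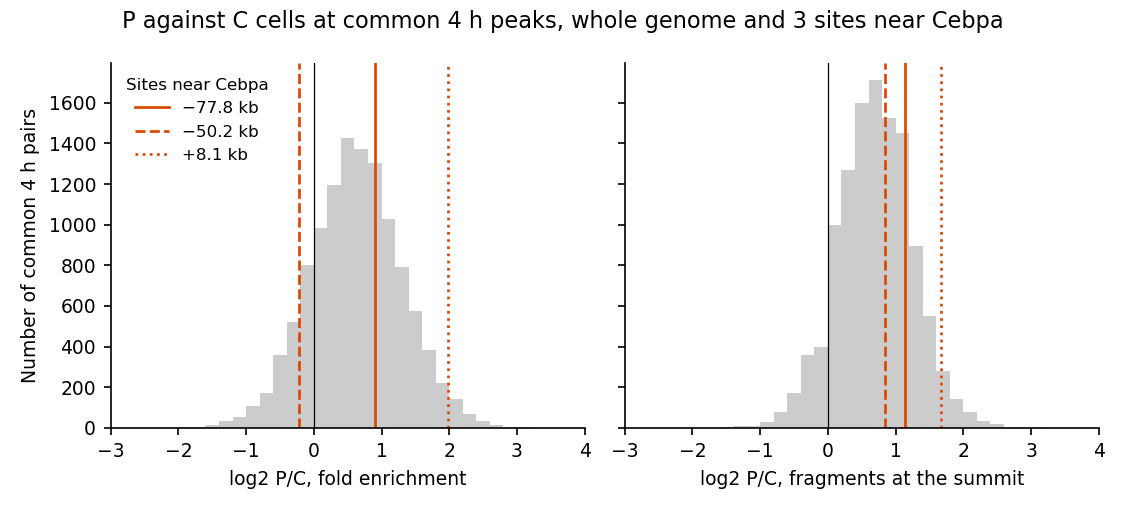
Distribution of the log2 P/C ratio over 11616 common 4 h pairs (grey bars, number of pairs on the vertical axis) for fold enrichment (left) and fragments at the summit (right), with lines at the 3 shared sites near Cebpa. The +8.1 kb site lies in the upper tail in both panels, and the −50.2 kb site is at −0.21 on the left and at 0.84 on the right.

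The peak numbers were then set beside 12953 other windows of the same size on chromosomes 1 to 19 and X. Of these, 58.6% held a peak in at least 1 list. The Wilson intervals below treat the windows as independent draws, and cover neither counting error in the peaks nor differences between libraries. At day −2, 94.2% of the other windows had no C peak (Wilson 95% interval 93.7 to 94.6%), as here, and 10.4% had at least 1 P peak (9.88 to 10.9%). At 4 h, 14.7% had at least 3 C peaks (14.1 to 15.3%) and 8.46% had at least 7 P peaks (7.99 to 8.95%). Among windows with a peak in any list, the shares at 4 h were 25.1% and 14.4%, and that of P cells at day −2 was 17.7%. Without peaks shorter than 215 bp, the share of P cells at day −2 was 4.96%. With 50 kb on each side of the gene, which keeps 1 C peak and 3 P peaks at 4 h, the shares at 4 h were 29.1% and 14.8%, so the standing of the window depends on its flanks. The Cebpa window as drawn was above the median window, which had 0 C peaks and 1 P peak at 4 h, and well below the fullest ones, with 17 and 26. Windows with 3 C peaks at 4 h held a median of 5 P peaks (10th to 90th percentile 3 to 8), and 20.6% of these 758 windows held at least 7.

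By the height of the strongest peak, the Cebpa window stood further out. A highest −log10 p at least as large was found in 0.687% of other windows in P cells at day −2. At 4 h it was found in 1.47% of them in the C list and 0.224% in the P list, or 29 of 12953 windows. These values rest on the −77.8 kb site. They count windows without a peak in the list as lower. Such windows were 89.6% in P cells at day −2, and 57.0% in the C list and 42.9% in the P list at 4 h. The pattern of no C peak at day −2 with at least 1 peak in each other list was shared by 786 other windows, or 6.07%.

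**Figure D4:**
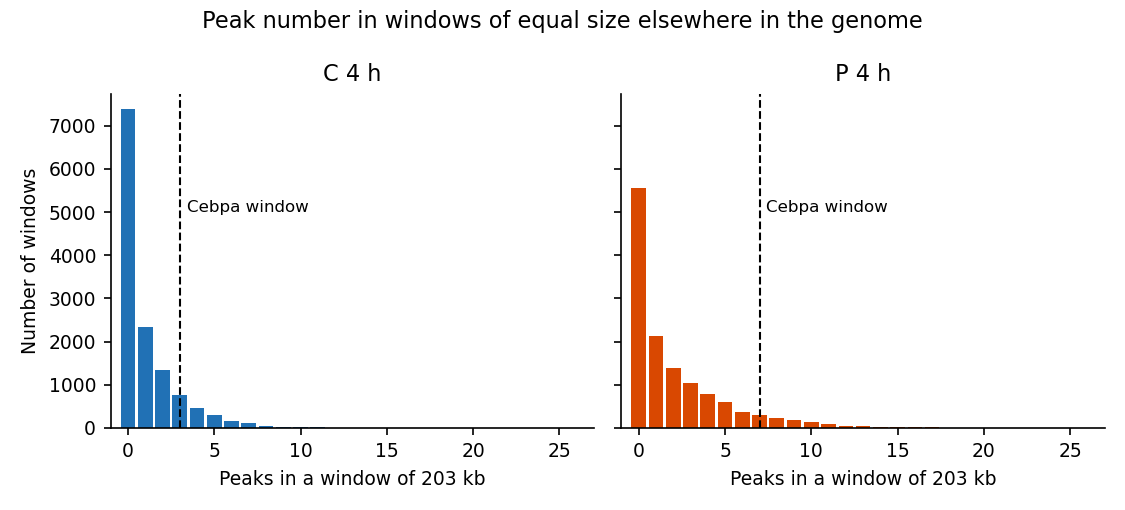
Number of windows (vertical axis) by the number of C/EBPβ peaks in a window of 203 kb (horizontal axis) in the 4 h lists of C cells (left) and P cells (right). Dashed lines mark the Cebpa window, at 3 C peaks and 7 P peaks.

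The peaks were uneven along the locus. In P cells at 4 h, 4 of the 7 sites lay between −77.8 and −50.2 kb, 1 at the promoter and 2 downstream. The last 64.6 kb of the window, after the +38.1 kb summit, held no peak in any list. Just beyond the window, the nearest P peak at 4 h was 12.7 kb further on, with a fold enrichment of 9.06, and the nearest C peak at 4 h was 32.2 kb further on, with 8.13. On the upstream side the next 4 h peaks lay 212 kb (P cells) and 272 kb (C cells) before the window, with a fold enrichment of 8.99 and 7.52. At day −2 the closest P peaks outside the window were 6646 kb and 12642 kb away, so the −77.8 kb site was the only P peak over a long part of the chromosome at that time.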

How the data were processed

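Per the labels, C/EBPβ was precipitated with the sc-150 antibody. The authors aligned Ion Torrent reads to mm9 with Bowtie 0.12.8, removed duplicates, down-sampled with SAMtools 1.3.1 and called peaks with MACS2 2.0.10.20131028, 1 ChIP library against input per condition. The deposited fold enrichment is a ratio of scaled ChIP fragments to local background, with 1 added to both, and the deposited −log10 p and q come from the authors' peak caller. Peak names carry hour tags of 0 and 5, and the labelled day −2 and 4 h were used.

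The software was numpy 2.4.6 and pandas 2.3.3 under Python 3.11.15. Peaks overlapping by at least 1 bp were merged. Fragments and background at each summit were solved from fold enrichment and −log10 p under a Poisson model (scipy 1.17.1), and a whole number was found for 100% of peaks in each list, within 0.01 in −log10 p. The code was tested on simulated data. Depth assumes a genome of 2.7e+09 bp and the shortest peak as fragment length. Other windows were tiled from the first base to the last peak of each chromosome. All regions were named, since there were no more than 15. Members and measures were chosen with earlier results of these data known. Sequences and motifs were not analysed here. Coordinates count from 1. Alternatives are given at the end. Figures used matplotlib 3.10.9.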

Additional observations from a re-analysis of the deposited data

How the results depend on the processing

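Across 11 results, 48 alternative values were computed, of which 17 moved and 31 did not. A share of windows was taken as moved outside its Wilson 95% interval, and any other value when it changed by over 1.5 times. The windows tile the genome and are not a random sample, so that interval served as a yardstick only. Peak numbers and shares of windows have no sign, so most of these values could not reverse in direction. The median log2 P/C ratio over the 3 shared sites, 0.91 in fold enrichment, stayed positive at 1.26 in −log10 p and 1.14 in fragments. At the −50.2 kb site alone the sign did change, from −0.21 in fold enrichment to 0.84 in fragments. A −log10 p of at least 10 and a fold enrichment of at least 5 kept all 11 peaks. With 50 kb on each side of the gene, the window held 0 P peaks at day −2, and 1 C peak and 3 P peaks at 4 h, since the upstream sites fall outside it. Without peaks shorter than 215 bp, an alternative chosen after seeing the data, P cells kept 4 peaks at 4 h.

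The share of other windows with at least as many peaks (for C cells at day −2, with none) moved as follows. Counting only windows with a peak in any list, it was 90.0% for C and 17.7% for P cells at day −2, and 25.1% and 14.4% at 4 h. Where only peaks past a −log10 p of 10 counted, it was 94.9% for C cells at day −2, and 12.3% for C and 7.18% for P cells at 4 h. With 50 kb on each side it was 96.9% for C cells at day −2, and 29.1% and 14.8% at 4 h. Without short peaks it was 4.96% for P cells at day −2, and 15.4% and 12.2% at 4 h. The P share was below the C share at 4 h under each of these. The lack of replicates limits each result, and no library could be left out. No paired analysis was possible because each condition had 1 library.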
